A study of Mus musculus with 24 samples.

Results

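The cathepsin genes Ctsb, Ctsc, Ctsd, Ctsh, Ctsk, Ctsl, Ctss and Ctsz were followed in mouse lung after bleomycin, a drug that breaks DNA and is instilled into the airways to produce lung fibrosis. The members were all probe sets that the annotation of the Affymetrix murine array assigns to these 8 genes alone, of 8251 genes that have a probe set of their own on it. There were 13 such probe sets among 12488 in the table: 4 for Ctsb, 3 for Ctsc and 1 for each of the other genes. All 13 passed the filter on dim probe sets (an intensity above 226 on at least 2 arrays), among 8710 tested. Ctsb 162271_f_at passed it on 4 of 24 arrays only, with intensities from 27.0 to 289.

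The 24 arrays carried total lung RNA of the inbred strains C57BL/6J and BALB/c, with no allele or transgene named in the labels. Mice had received bleomycin into the trachea at 1.5 U per kg, or saline, and lungs were frozen at 24 h, 72 h or 14 d. Each of the 12 groups of strain, treatment and time had 2 arrays, named a and b. The labels give neither an age nor word on separate animals for a and b, and p-values therefore measure only the spread between these arrays, which may be technical. Titles placed the arrays in groups. The descriptions of the BALB/c saline 72 h arrays name bleomycin, and those of the BALB/c saline 24 h arrays name bleomycin or saline.

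Cathepsins are proteases that work mainly in lysosomes. Most of the genes here encode cysteine proteases of the papain family, and Ctsd encodes an aspartic protease. They are made as inactive precursors and cut to the active form in the acid lysosome. Outside it the cysteine proteases among them are held in check by cystatins. In the lung cathepsins are known from alveolar macrophages, from antigen-presenting cells, and, for Ctsh, from type 2 alveolar cells, where it takes part in making surfactant protein B. When secreted, several of them can cut collagen and elastin.

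Promoters are shown for 4 genes of the 14 d results: Ctsk, called higher in both strains, Ctsl and Ctss, called higher in C57BL/6J, and Ctsd, called lower in BALB/c. They come from RefSeq on GRCm38.p6, and 6 of the 8 genes had an entry. Each runs 5′ to 3′ from 250 bases before the annotated start to 50 bases after it. Capitals mark matches to CACGTG (the E-box core of the motif bound by the lysosomal regulator TFEB), TCATGTG (an M-box, bound by the same family) or GAAA, any 2 bases and GAAA again (an interferon-stimulated response element), searched on both strands. No match overlapped another.
Ctsk, chr3:95498960-95499259, plus strand: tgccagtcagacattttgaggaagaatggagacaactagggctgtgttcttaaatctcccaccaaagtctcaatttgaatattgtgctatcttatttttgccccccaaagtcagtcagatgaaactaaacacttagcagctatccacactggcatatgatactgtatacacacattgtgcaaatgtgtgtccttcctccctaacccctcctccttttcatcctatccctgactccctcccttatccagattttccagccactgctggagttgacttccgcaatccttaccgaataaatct
Ctsl, chr13:64370471-64370770, minus strand: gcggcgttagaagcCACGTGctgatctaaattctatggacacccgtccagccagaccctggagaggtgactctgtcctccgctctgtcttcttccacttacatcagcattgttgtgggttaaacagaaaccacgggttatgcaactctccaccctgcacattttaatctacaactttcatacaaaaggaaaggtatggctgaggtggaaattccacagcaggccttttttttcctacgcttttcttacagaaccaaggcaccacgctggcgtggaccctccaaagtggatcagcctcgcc
Ctss, chr3:95526536-95526835, plus strand: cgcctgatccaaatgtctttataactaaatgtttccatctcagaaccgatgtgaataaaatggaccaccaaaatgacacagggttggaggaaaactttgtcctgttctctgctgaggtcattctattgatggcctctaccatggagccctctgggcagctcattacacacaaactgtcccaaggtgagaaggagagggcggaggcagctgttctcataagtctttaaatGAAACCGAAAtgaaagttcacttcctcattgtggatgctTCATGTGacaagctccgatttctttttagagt
Ctsd, chr7:142387778-142388077, minus strand: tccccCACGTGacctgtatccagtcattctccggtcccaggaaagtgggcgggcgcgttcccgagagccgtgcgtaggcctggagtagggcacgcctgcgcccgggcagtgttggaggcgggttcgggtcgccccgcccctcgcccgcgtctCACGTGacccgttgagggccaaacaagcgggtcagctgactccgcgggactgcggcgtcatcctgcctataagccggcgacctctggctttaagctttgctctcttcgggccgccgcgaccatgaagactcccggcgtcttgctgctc
CACGTG stood at -245 and -98 from the start of Ctsd and at -236 of Ctsl. It occurred in 7.15% of 32851 promoters of this length. Ctss held TCATGTG at 19, a motif of 3.77% of promoters, and the interferon element at -21, found in 3.44%. None of the 3 motifs was found in these windows of Ctsk, Ctsc or Ctsz. A match describes letters in the sequence and no more. The Ctsl window lies inside the annotated span of that gene, chr13:64361890-64370772. Ctsk (chr3:95499210-95509387) and Ctss (chr3:95526786-95556405) are neighbours on chromosome 3, and Ctsc and Ctsd both lie on chromosome 7.

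The arrays differed in ways that matter for bright probe sets. The highest intensity on an array ran from 6888 (BALB/c bleomycin 14 d, array b) to 78641 (C57BL/6J saline 24 h, array a), and was at most 21462 outside the C57BL/6J saline 24 h group. The titles of these 2 arrays end in s1, that of the C57BL/6J bleomycin 14 d array a in s2a and those of the other 21 in s2, endings the labels do not explain. The bleomycin effect at 24 h in C57BL/6J cannot be told apart from that difference in title, and the comparisons over all times and between strains after saline use the s1 arrays too. A probe set was marked very bright when its mean over the C57BL/6J saline arrays of 24 h was above 6888. That held for 282 tested probe sets and, of the cathepsins, for Ctsd alone, at 7767. Single arrays also passed 6888 for Ctss (6 of 24), Ctsb 94831_at (2), Ctsh (1) and Ctsl (1). Averaged over all 24 arrays, Ctsd read 3858, Ctss 6683, Ctsb 94831_at 5135 and Ctsh 4469, so the mark rests on the s1 arrays. Across the 24 arrays Ctsd had a Pearson correlation of 0.652 with the array maximum, and the other 12 probe sets had values from -0.357 to 0.339. Arrays share scaling and tissue, so these correlations are descriptions. The log2 values of the a and b arrays of a group correlated at 0.959 to 0.985.

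Fold changes below are on the scale of log2(intensity + 92), with the standard error from limma, a linear model fitted to all 8710 probe sets. A probe set was called at a Benjamini-Hochberg adjusted p under 0.05 over all of them. Levels of different probe sets are not compared, since each has its own hybridisation strength.

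**Figure D1:**
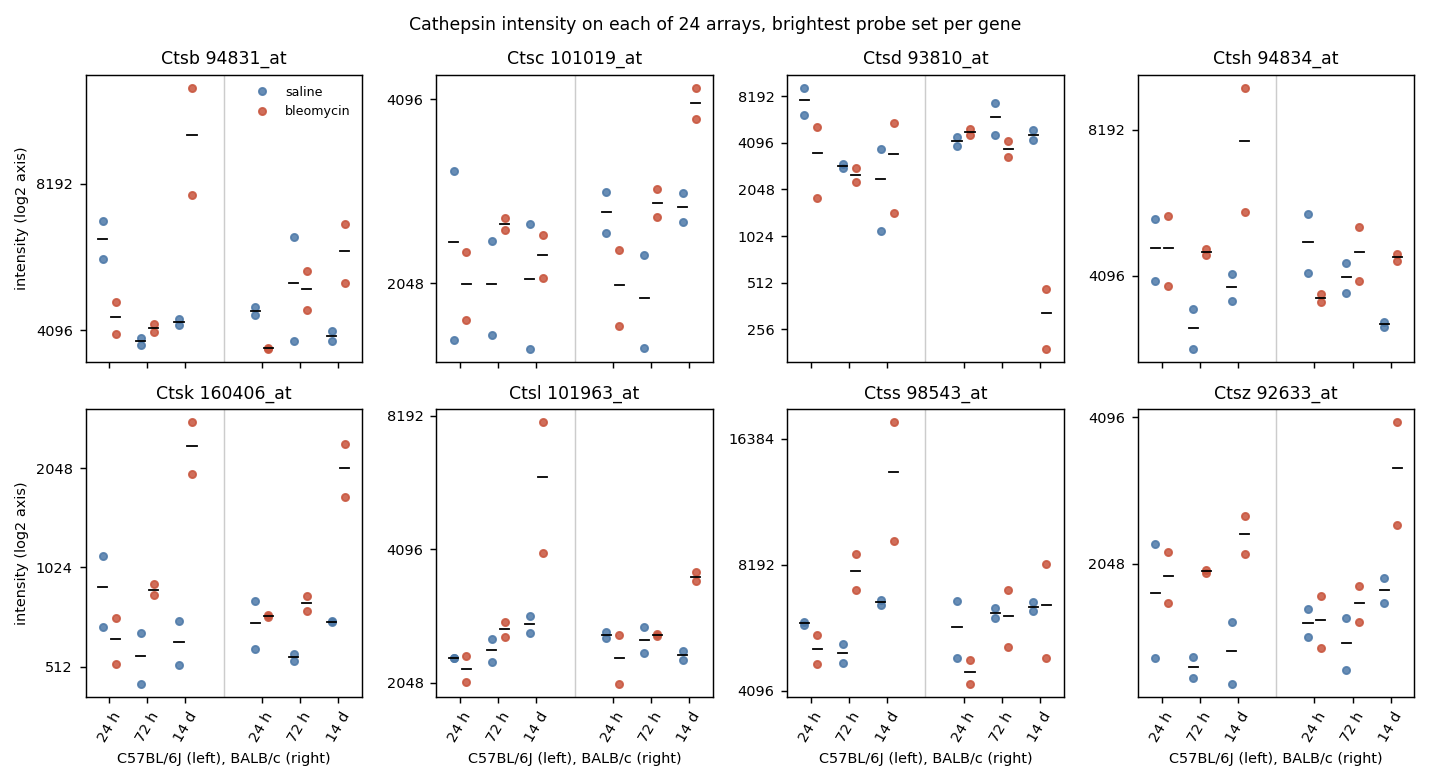
Intensity on each array (log2 axis) of the brightest probe set of each cathepsin gene, by time after saline or bleomycin, C57BL/6J on the left of each panel and BALB/c on the right. Points are arrays, 2 per group, and short bars are group means. The 4 bleomycin 14 d arrays were the highest for Ctsk (1675 to 2820) and Ctsl (3468 to 7904), and the BALB/c pair was the lowest for Ctsd.

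At 14 d several cathepsins were higher after bleomycin. In C57BL/6J 7 of the 13 probe sets rose, those of Ctsb, Ctsh, Ctsk, Ctsl and Ctss, and 0 fell, where 7.43% of all probe sets tested were called. In BALB/c 3 rose (Ctsk, 1 of Ctsb, and Ctsz) and 1 fell (Ctsd), where 13.3% of all were called. The median log2 change of the 13 was 0.93 in C57BL/6J, against -0.07 over all probe sets, and 0.55 in BALB/c, against 0.04. In whole lung, more cells of a type and more RNA per cell cannot be told apart.

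Ctsk, the collagen-degrading cathepsin best known from osteoclasts, changed most among the probe sets that rose. Its intensity on the a and b arrays was 2820 and 1962 in C57BL/6J after bleomycin at 14 d, and 517 and 702 after saline. In BALB/c it was 1675 and 2433 after bleomycin, and 697 and 702 after saline. The groups did not overlap, and the 4 bleomycin 14 d arrays stood above all 20 others, which ran from 454 to 1108. The rise was 1.81 ± 0.24 on the log2 scale in C57BL/6J, or 3.52-fold (adjusted p = 4.89e-04), and 1.42 ± 0.24 in BALB/c, or 2.67-fold (adjusted p = 0.00178). The strains' effects differed by 0.40 ± 0.34 (adjusted p = 0.505, 95% confidence interval from -0.32 to 1.12), so a larger rise in either strain was not detectable with these arrays. Under the 33 alternatives tried, the Ctsk rise at 14 d ran from 1.56 to 2.07 in C57BL/6J and from 1.16 to 1.67 in BALB/c. Many of these change only arrays of other groups, which cannot move the estimate.

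Ctsl, a broadly expressed endopeptidase that also trims the invariant chain in the thymus, had its 4 highest values on the same 4 arrays. In C57BL/6J the intensities were 7904 and 4013 after bleomycin and 2900 and 2654 after saline. BALB/c had 3626 and 3468 after bleomycin and 2417 and 2308 after saline. Bleomycin and saline arrays did not overlap in either strain. Ctsl rose by 0.999 ± 0.211 in C57BL/6J (adjusted p = 0.00859). In BALB/c the difference of 0.57 ± 0.21 was not called (adjusted p = 0.0836), and it was called after quantile normalization, at 0.63 (adjusted p = 0.023).

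Ctsb, which cuts proteins both internally and from the end, was measured by 3 probe sets of clear signal and the dim 162271_f_at. The brightest, 94831_at, read 12914 and 7773 in C57BL/6J after bleomycin and 4319 and 4206 after saline. In BALB/c it read 6780 and 5120 after bleomycin, and 4078 and 3901 after saline. Bleomycin arrays were above saline arrays in both strains. In C57BL/6J, 94831_at rose by 1.22 ± 0.23 (adjusted p = 0.00427). The other clear probe sets rose there too, 92256_at by 1.22 ± 0.27 (adjusted p = 0.01) and 95608_at by 1.04 ± 0.24 (adjusted p = 0.0139). In BALB/c only 92256_at was called among the Ctsb probe sets, at 0.85 ± 0.26 (adjusted p = 0.0429), while 94831_at gave 0.55 and 95608_at 0.57. The dim 162271_f_at gave -0.13 in C57BL/6J and 0.96 in BALB/c, neither of them called, and so went against the other probe sets in C57BL/6J.

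Ctsh, an aminopeptidase of macrophages and type 2 alveolar cells, read 9993 and 5541 in C57BL/6J after bleomycin and 4124 and 3627 after saline. It rose by 0.93 ± 0.24 (adjusted p = 0.024). In BALB/c it read 4393 and 4549 after bleomycin and 3290 and 3217 after saline, a difference of 0.45 ± 0.24 that was not called (adjusted p = 0.224). After quantile normalization the BALB/c difference of Ctsh was called, at 0.67 (adjusted p = 0.0254), as was that of Ctsb 94831_at, at 1.01.

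Ctss, the protease that processes the invariant chain of MHC class II in antigen-presenting cells, read 17945 and 9323 in C57BL/6J after bleomycin and 6746 and 6568 after saline. It rose by 0.95 ± 0.27 (adjusted p = 0.0384). BALB/c arrays read 8234 and 4910 after bleomycin, on both sides of the 6338 and 6654 after saline, and gave -0.03 ± 0.27 (adjusted p = 0.957), or 0.45 after quantile normalization (adjusted p = 0.232). The difference between the strains' effects, 0.98 ± 0.38, was not called (adjusted p = 0.123), and its 95% interval ran from 0.18 to 1.78.

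Ctsz, a carboxypeptidase abundant in myeloid cells, had nearly the same log2 difference in both strains. It read 2569 and 2142 in C57BL/6J after bleomycin and 1160 and 1555 after saline, a difference of 0.76 ± 0.24 just outside the threshold (adjusted p = 0.0638). In BALB/c it read 2458 and 4000 after bleomycin and 1705 and 1915 after saline, a rise of 0.77 ± 0.24 just inside it (adjusted p = 0.0449). Bleomycin arrays were above saline arrays in both strains.

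Ctsc, or dipeptidyl peptidase I, which activates the serine proteases of granules, was not called at 14 d. Its 3 probe sets gave from -0.08 to 0.16 in C57BL/6J and from 0.05 to 0.55 in BALB/c.

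1 array carried much of the C57BL/6J result. Bleomycin array a, the one with the s2a title, was above array b for all 7 probe sets that rose. Without it 1 of the 7 was still called, Ctsk at 1.56 (adjusted p = 0.0202), and all probe sets called fell from 647 to 85. Ctsl then gave 0.52 and Ctss 0.48. Without the saline 14 d array a 3 members were called, and without array b 4. In BALB/c Ctsk and Ctsd were called whichever array was left out. Ctsb 92256_at and Ctsz lay near the threshold, and 2 members were called without any 1 of 10 arrays: BALB/c saline 14 d a or b, BALB/c bleomycin 14 d b, either BALB/c bleomycin array of 24 h or 72 h, C57BL/6J bleomycin 24 h b, or either C57BL/6J bleomycin 72 h array.

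**Figure D2:**
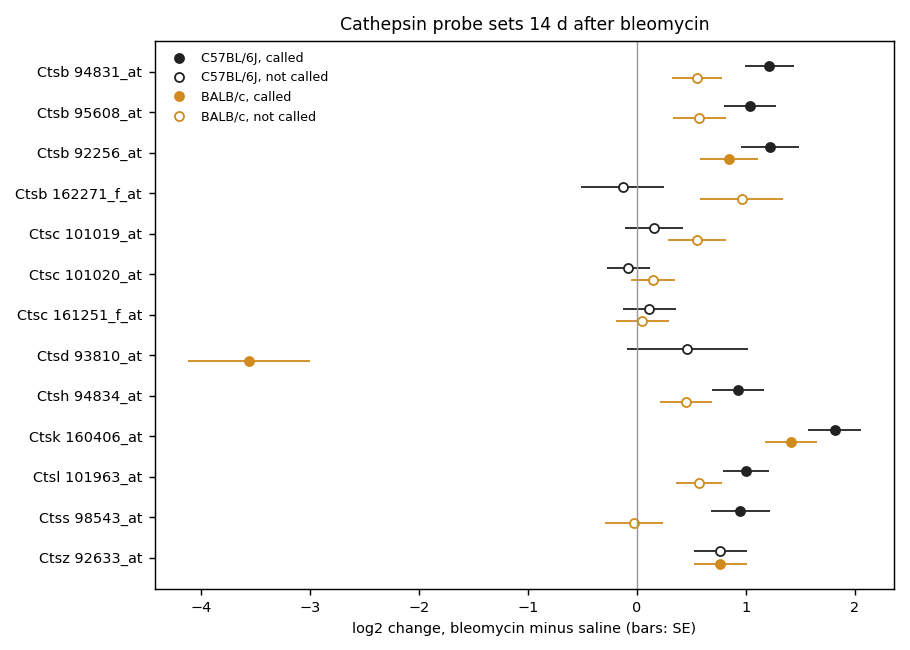
Log2 change 14 d after bleomycin against saline for the 13 cathepsin probe sets in C57BL/6J (black) and BALB/c (orange), with standard errors. Filled points were called at an adjusted p under 0.05. Ctsk was called in both strains, at 1.81 and 1.42, and Ctsd lay at -3.56 in BALB/c.

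Ctsd, the aspartic protease and a major enzyme of protein breakdown in lysosomes, went the other way in BALB/c. Its intensity was 463 and 190 after bleomycin at 14 d and 4241 and 4950 after saline, and it fell by 3.56 on the log2 scale, with a standard error of 0.56 (adjusted p = 0.00111). In C57BL/6J it was 5520 and 1449 after bleomycin and 3712 and 1105 after saline, groups that overlapped, with a difference of 0.46 ± 0.56 (adjusted p = 0.687). The difference between the strains' effects was 4.03 ± 0.79 (adjusted p = 0.00886). It was the 1 cathepsin called in that comparison, in which 7.43% of all probe sets were called. Leaving out the C57BL/6J bleomycin 14 d array b raised both the number of cathepsins called in it and the number over all probe sets. Leaving out the BALB/c bleomycin 14 d array a raised the cathepsin number too.

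Some other bright probe sets were low on the same BALB/c arrays, and others were not. Ctsb 94831_at (6780 and 5120 against 4078 and 3901) and Ctsh (4393 and 4549 against 3290 and 3217) were above their saline arrays. Ctss lay on both sides of its saline arrays. The control probe set for the middle of beta-actin, which is not a lysosomal gene, read 1176 and 448 on the BALB/c bleomycin 14 d arrays and 9150 and 8805 on their saline arrays. The 3′ probe set for Cre recombinase, a control spiked into the labelled sample, read 5036 and 4629 against 10637 and 10721. The array maximum was 10674 and 6888 against 14092 and 13856. Of the 5 arrays lowest for Ctsd, 4 were among the 5 lowest for the actin control, 4 for the spiked control and 4 for the array maximum. Lamp1, which encodes a lysosomal membrane protein, read 2582 and 267 against 9981 and 10232 and fell by 3.38 on the log2 scale (adjusted p = 0.00598). The part of these array differences in the fall of Ctsd was not tested. Ctsd read 9309 and 6225 on the C57BL/6J saline 24 h arrays, whose maxima were the highest of the series.

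**Figure D3:**
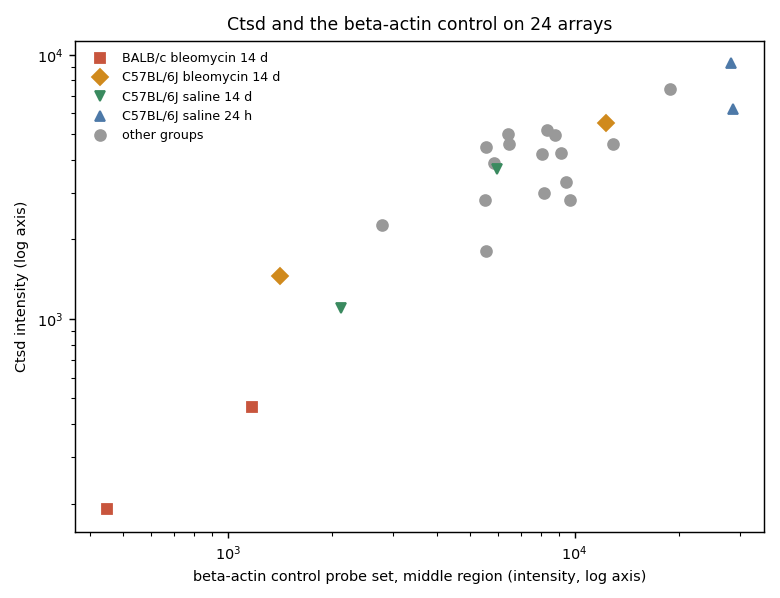
Ctsd intensity against the intensity of the control probe set for the middle of beta-actin, 1 point per array, both axes logarithmic. The BALB/c bleomycin 14 d arrays lie lowest on both axes (Ctsd 463 and 190, actin 1176 and 448), and the C57BL/6J saline 24 h arrays have the highest actin values, at 28232 and 28645.

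At the earlier times few of these genes passed the test. At 24 h 0 of the 13 probe sets were called in C57BL/6J, where 2.23% of all were, and 0 in BALB/c, where 0.218% were. At an unadjusted p under 0.05 limma gave 2 and 1 of the 13, and 14.6% and 13.6% of all probe sets. Ctsd gave the lowest C57BL/6J value, -1.28 ± 0.56 (adjusted p = 0.292), from 1811 and 5188 after bleomycin against 9309 and 6225 after saline, and Ctsb 162271_f_at the highest BALB/c value, 1.01 ± 0.38 (adjusted p = 0.24). With the saline 14 d arrays as control, Ctsd gave 0.57 in C57BL/6J at 24 h, the opposite direction and again not called. The difference between the strains' effects at 24 h was called for 0 members and 0.023% of all probe sets. At an unadjusted p under 0.05 there were 2 members, 162271_f_at among them, and 9.64% of all. Averaged over both strains at 72 h, 0 members were called and 3.21% of all, with 3 members and 17.4% of all at an unadjusted p under 0.05. Ctsk came nearest there, at 0.54 ± 0.17 (adjusted p = 0.0958). Its 72 h intensities were 842 and 913 after bleomycin and 454 and 647 after saline in C57BL/6J, and 757 and 836 against 532 and 560 in BALB/c. The groups did not overlap in either strain, which with 2 arrays each is weak evidence. The mean over both strains does not depend on which strain a saline 72 h array belongs to.

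Over both strains and all times 5 members were called, where 15.6% of all probe sets were. Ctsk rose by 0.66 ± 0.10 (adjusted p = 2.6e-04), Ctsz by 0.43 ± 0.10 (adjusted p = 0.00746), Ctsb 92256_at by 0.34 ± 0.11 (adjusted p = 0.0397) and Ctsb 95608_at by 0.30 ± 0.10 (adjusted p = 0.0494). Ctsd fell by 0.83 (adjusted p = 0.0196), a mean of effects in both directions. It gave -3.56 in BALB/c at 14 d and, against the s1 arrays, -1.28 in C57BL/6J at 24 h. It gave 0.46 in C57BL/6J at 14 d, 0.20 in BALB/c at 24 h and -0.41 over both strains at 72 h. With the saline 72 h arrays left out, the saline 24 h and 14 d arrays of the strain served as the 72 h control. For C57BL/6J that control includes the s1 arrays. In that setting 2 of the 5 members were called, Ctsk and Ctsb 92256_at, and 971 of all probe sets, against 1356.

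**Figure D4:**
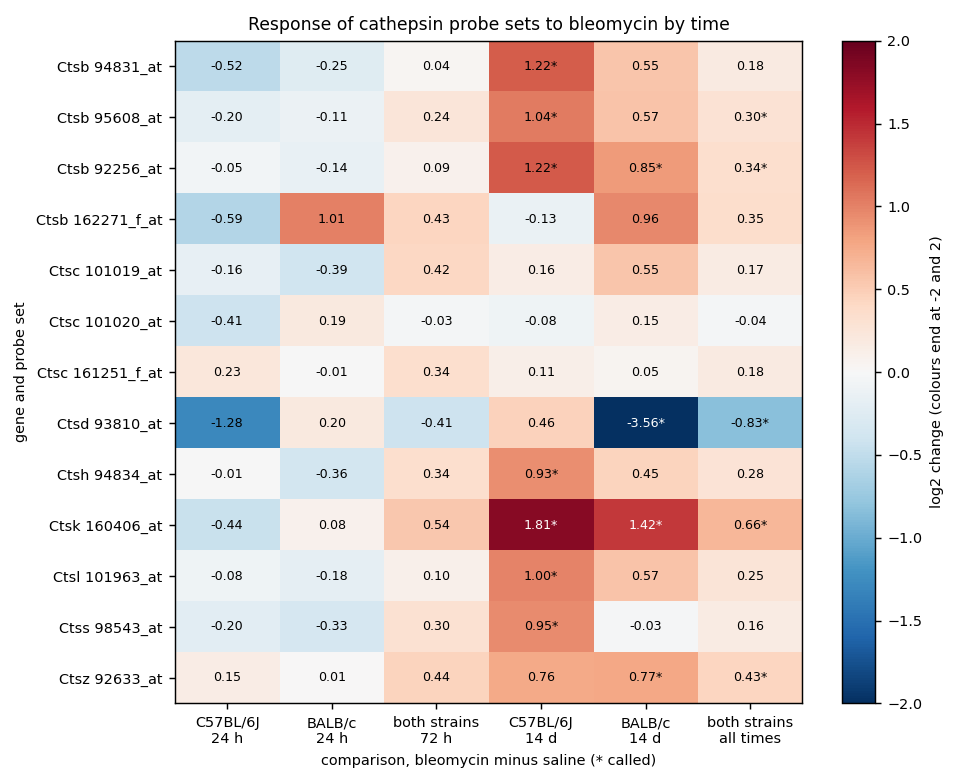
Log2 change after bleomycin for each cathepsin probe set (rows) at each time (columns), printed in each cell, red for higher and blue for lower than saline, with an asterisk where called. At 24 h and 72 h no cell has an asterisk, and at 14 d Ctsk has one in both strains. The 72 h column is the mean of both strains.

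Ctsc separated the strains rather than the treatments, in 2 of its 3 probe sets. On the 10 C57BL/6J arrays other than saline 72 h, 101020_at ran from 1283 to 2468 with a median of 1882, and on the 10 BALB/c arrays from 95.8 to 262 with a median of 177. The groups were far apart with no overlap. The BALB/c values lay near the dim end, with 2 of the 10 arrays above the filter's 226, so the size of the log2 difference depends on the offset. After bleomycin it was 2.84 with the offset of 92, 3.09 with 46 and 2.20 with 276, and after saline at 24 h and 14 d it was 3.02, 3.27 and 2.38. The second, 161251_f_at, ran from 305 to 568 in C57BL/6J and from 15.3 to 86.5 in BALB/c. None of the 10 BALB/c arrays was above the filter for 161251_f_at, which passed it through the arrays where it is high. Its levels are therefore a description, and no difference between the strains is given for it here. The third, 101019_at, ran from 1598 to 3129 and from 1744 to 4277, and its strain differences of -0.30 and -0.32 were not called. The probe sets of Ctsc thus disagreed on the strain difference.

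The 4 saline 72 h arrays had the Ctsc level of the strain opposite to their label. Those labelled C57BL/6J read 148 and 187 for 101020_at, inside the BALB/c range, and those labelled BALB/c read 1248 and 1789. For 161251_f_at they read 17.3 and 17.0, and 361 and 439. H2-Ea, an MHC class II gene that C57BL/6J mice do not express, was reversed on the same arrays: 3622 to 4821 on those labelled C57BL/6J and 48.3 to 89.5 on those labelled BALB/c. On the other arrays it ran from 25.6 to 166 in C57BL/6J and from 2917 to 6068 in BALB/c. As labelled, 72 h therefore gave 2 members called higher after bleomycin in C57BL/6J (6.61% of all probe sets called) and 2 called lower in BALB/c (1.32% called), all of them these Ctsc probe sets. For 161251_f_at these calls set arrays above the filter against arrays below it, and are no test. With those saline arrays left out or with their strain labels exchanged, 0 members were called at 72 h in either strain.

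**Figure D5:**
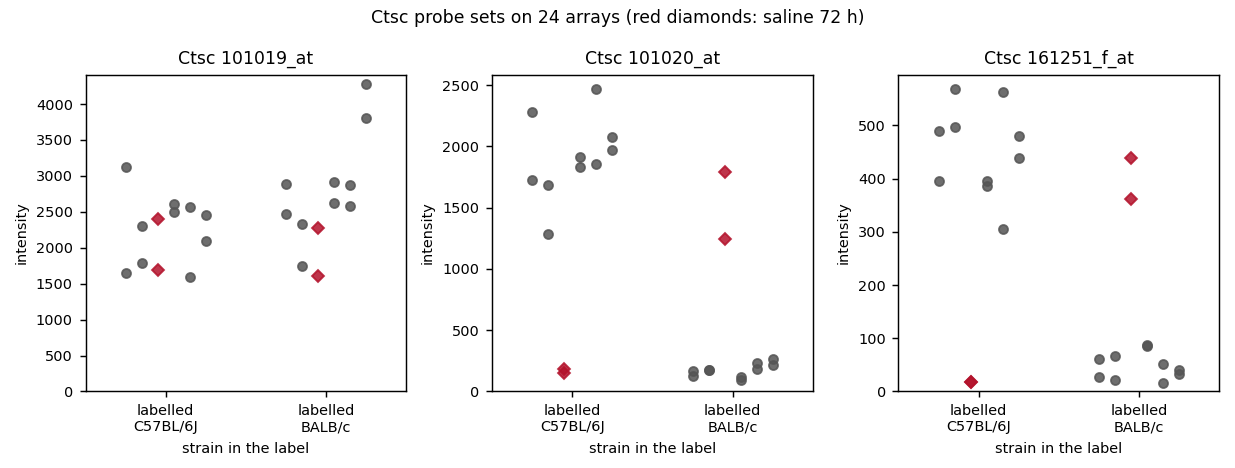
Intensity of the 3 Ctsc probe sets on each array by the strain in its label. Grey points are arrays of the other groups and red diamonds the 4 saline 72 h arrays. For 101020_at and 161251_f_at the diamonds lie with the opposite strain, as at 148 and 187 for 101020_at under the C57BL/6J label.

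Besides Ctsc, 1 cathepsin was called between the strains after bleomycin. After bleomycin over all times 3 members were called (11.7% of all probe sets), the 2 of Ctsc and Ctss, which was higher in C57BL/6J by 0.52 ± 0.16 (adjusted p = 0.0377). Ctss was called in 21 of 33 alternatives, and quantile normalization gave 0.43 (adjusted p = 0.0642). Leaving out the C57BL/6J bleomycin 14 d array b raised both the number of members called and the number over all probe sets. After saline at 24 h and 14 d the 2 Ctsc probe sets were called, where 11.1% of all were (161251_f_at had to differ in both, given how it passed the filter), and Ctss gave 0.04 ± 0.19.

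Partners of the cathepsins were read from lists chosen by function, 1 probe set per gene. Lgmn, Cd68 and Col1a2 are each on 2 of the lists, and Lyz2 is on those of macrophage and type 2 alveolar markers. Of 42 lysosomal genes tested 8 rose and 1 fell in C57BL/6J at 14 d, and 7 rose and 4 fell in BALB/c, with medians of 0.19 in both. Over all 6464 genes tested 202 rose and 298 fell in C57BL/6J, and 557 rose and 297 fell in BALB/c. Lgmn, the asparaginyl endopeptidase that cleaves several cathepsin precursors, read 6921 and 5208 after bleomycin and 1528 and 2205 after saline in C57BL/6J, a rise of 1.66 ± 0.24 (adjusted p = 7.87e-04). In BALB/c Lgmn gave 0.73 (adjusted p = 0.0529). Scarb2, a lysosomal membrane receptor, rose by 0.65 in BALB/c (adjusted p = 0.0106) and gave 0.43 in C57BL/6J. Npc1, the lysosomal cholesterol exporter, gave 0.14 and 0.03.

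Among 3 other cathepsins tested Ctsa, a serine carboxypeptidase, rose in C57BL/6J by 0.72 (adjusted p = 0.0139) and in BALB/c by 1.07 (adjusted p = 0.00107). Ctse and Ctsf were not called in either strain. Of 5 inhibitors tested 0 were called in C57BL/6J and 1 rose in BALB/c: Kng1, whose kininogen carries cystatin domains, at 1131 and 984 after bleomycin against 201 and 218, a rise of 1.93 ± 0.36 (adjusted p = 0.00324). Cst3, cystatin C, gave 0.37 in C57BL/6J and -1.01 in BALB/c (adjusted p = 0.0506). Cstb, the cytosolic inhibitor stefin B, gave 0.66 and -0.26, neither called. Of 14 processing factors and substrates 2 rose and 2 fell in C57BL/6J, and 1 rose and 3 fell in BALB/c. Col1a2, a chain of type I collagen, rose by 1.21 (adjusted p = 0.00162) and 0.72 (adjusted p = 0.023). Eln, elastin, fell by 2.79 (adjusted p = 0.00151) in C57BL/6J and fell by 4.08 (adjusted p = 1.21e-04) in BALB/c. Eln read 457 and 192 on the BALB/c bleomycin arrays that were also low for Ctsd, and 6087 and 7117 after saline. Gzma, a granzyme of the kind that Ctsc activates, fell by 1.16 in C57BL/6J (adjusted p = 0.0451).

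Of 19 macrophage markers tested 6 rose and 0 fell at 14 d in C57BL/6J, and 6 rose and 1 fell in BALB/c. Their median log2 changes were 0.89 and 0.76, where all 6464 genes had -0.07 and 0.06, with 202 genes higher and 298 lower in C57BL/6J and 557 and 297 in BALB/c. Their summed intensity was 93730 and 55079 after bleomycin and 38742 and 35402 after saline in C57BL/6J, and 40015 and 33917 against 27932 and 27847 in BALB/c. The bright Lyz2, in this sum and in that of the type 2 alveolar markers, went the other way in BALB/c. It read 9174 and 5454 against 12141 and 11453 there, and 10387 and 9613 against 10363 and 8243 in C57BL/6J. Cd68 rose by 1.54 (adjusted p = 0.00305) and by 0.93 (adjusted p = 0.0325). The complement gene C1qb rose by 2.94 (adjusted p = 1e-04) and by 1.37 (adjusted p = 0.0129). Adgre1, which encodes F4/80, read 976 and 445 against 233 and 236 in C57BL/6J. In C57BL/6J array a was the higher bleomycin array for the sum, as it was for the 7 cathepsin probe sets that rose. The part of the macrophage share in the cathepsin changes was not tested.

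Markers of other cell types were counted in the same way. At 14 d in C57BL/6J and BALB/c respectively, fibroblast markers had 3 higher and 2 lower, and 3 higher and 1 lower, of 12 tested. Summed fibroblast markers were 57977 and 40599 against 35183 and 36811 in C57BL/6J, and 37495 and 31358 against 25394 and 28061 in BALB/c, and their part was not tested either. Type 2 alveolar markers had 1 lower and 3 lower of 8, with 0 higher in either strain. Neutrophil markers had 1 higher of 9 in each strain, B cell markers had 3 lower and 0 of 8, and T and NK cell markers had 0 called of 5 in each. Summed type 2 markers were 79621 and 32990 on the C57BL/6J bleomycin arrays and 46468 and 27887 on the saline arrays, groups that overlapped. In BALB/c they were 33535 and 20967 after bleomycin and 50268 and 46769 after saline. Slc34a2, Scd1 and Lyz2 of this list passed the very bright mark of 6888, at 15379, 20251 and 17029 over the C57BL/6J saline 24 h arrays. The BALB/c bleomycin arrays were also those low for the actin and spiked controls. The part of these array differences in the type 2 marker calls and sums was not tested.

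The genes closest in pattern to each cathepsin over the 24 arrays were found by Pearson correlation of log2 values, given as descriptions since arrays of a group share treatment and scaling. For Ctsk they were Itgb2, the shared chain of leukocyte integrins, at 0.913, Cd68 at 0.89 and Sirpa at 0.882. For Ctsl they were Cd300c2 at 0.92, Man2b1, a lysosomal mannosidase, at 0.906 and Chrac1 at 0.895. Ctss was closest to the macrophage gene Mpeg1 at 0.843, then to Ctsl at 0.827 and Cd300c2 at 0.817. Ctsb 94831_at was closest to Ctsh at 0.822, then Tpm1 at 0.82 and Ctsl at 0.813. Ctsh was closest to Lgals1 at 0.896, Uqcrq at 0.885 and the Fc receptor gene Fcgr2b at 0.857. Ctsz was closest to Eif1ax and Col15a1, both at 0.856, and Clec4a2 at 0.851. Ctsd was closest to Inpp4a at 0.908, Lamp1 at 0.901 and Mprip at 0.898, and Ctsc 101019_at to Commd1 at 0.847, Ube2e1 at 0.817 and Lamtor5 at 0.811. With the summed macrophage markers the correlation was 0.849 for Ctsb, 0.835 for Ctsh, 0.812 for Ctss, 0.768 for Ctsl, 0.644 for Ctsk, 0.444 for Ctsz, -0.04 for Ctsd and -0.05 for Ctsc.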

How the data were processed

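The authors deposited an intensity on a linear scale for each probe set. Leaving out the lowest and highest 2% of values, each array averaged 799.8 to 799.9, so the arrays had apparently been scaled to 1 level. How probes were summarised is not stated in any source used. The 66 control probe sets were not tested. An offset of 92, the median lower quartile, was added before log2, and probe sets above the 40th percentile on 2 or more arrays were tested. limma 3.58.1 in R 4.3.3 fitted 12 group means with 12 residual degrees of freedom and a variance trend, two-sided, with Benjamini-Hochberg adjustment. Simulated data took each probe set's spread pooled over the 12 groups, with changes added on the C57BL/6J bleomycin 14 d arrays. There the fit recovered 10.4%, 70.1% and 98.5% of log2 changes of 0.5, 1 and 2, with 7 false calls over 8710 probe sets. The own spread of those 2 arrays was not simulated, so these values may not hold for the real C57BL/6J 14 d comparison. The number of arrays limits the precision. Named genes were all members, up to 4 genes of smallest p in the mean effect per list, and the 3 most correlated genes per member. Adgre1 and Lamp1 were chosen after their values were seen, and H2-Ea served as a check of strain. Alternatives were quantile normalization, other offsets, no filter, no variance trend, the array letter as a block, other handling of saline arrays and leaving out each array. The members and lists were chosen with earlier results of these data known. Promoter sequences are RefSeq's.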

Additional observations from a re-analysis of the deposited data

Results flagged for a closer look

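The response of Ctsd 93810_at to bleomycin at 14 d differed between the strains by 4.03 on the log2 scale (C57BL/6J effect minus BALB/c effect, interaction contrast in limma, adjusted p = 0.00886). Both BALB/c bleomycin arrays, 463 and 190, were below every other array. The difference kept its direction under all 33 alternatives, with values from 3.09 to 4.96. Many of these change only arrays of other groups, which cannot move the estimate. Of the cathepsins Ctsd alone was marked very bright, a mark that rests on the s1 arrays. Ctss, Ctsb 94831_at and Ctsh had higher means over all arrays. The beta-actin control was also lowest on those BALB/c bleomycin arrays, at 1176 and 448.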

How the results depend on the processing

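Members called at 14 d in BALB/c, 4 as reported, were 7 after quantile normalization, 2 with no filter and 2 with the saline 72 h arrays left out. Over both strains and all times, 5 as reported, they were 3 with no filter, 2 with the saline 72 h arrays left out and 3 where saline 14 d arrays served as 24 h control. Over all probe sets, BALB/c at 14 d gave 1262 called after quantile normalization and 989 with no filter, against 1158 as reported. Both strains and all times gave 971 with the saline 72 h arrays left out, against 1356. At 72 h the 2 members called in each strain became 0 with the saline 72 h arrays left out and 0 with their strain labels exchanged. Then Ctsc 101020_at gave -0.13 with the arrays left out in C57BL/6J. Ctsc 161251_f_at gave -0.11 and -0.024 (left out, exchanged) in C57BL/6J and 0.46 and 0.70 in BALB/c. As labelled it gave 2.15 and -1.47. The arrays behind 0.46 and 0.70 all read below the filter's 226 and the offset of 92, so these values test no bleomycin effect. The labelled values set arrays high for 161251_f_at against low ones. It passed the filter through the high ones, so these 2 values are descriptions only.

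Leaving out 1 array at a time gave from 1 to 8 members called at 14 d in C57BL/6J, from 2 to 5 in BALB/c, from 1 to 2 at 72 h in BALB/c, from 3 to 7 over both strains and all times (3 without any 1 of 10 arrays: C57BL/6J bleomycin 72 h a or b, saline 14 d a or bleomycin 14 d a, or BALB/c bleomycin 24 h a, saline 72 h b, bleomycin 72 h a or b, saline 14 d a or bleomycin 14 d b), from 1 to 4 for the strain difference of the effect at 14 d, and from 2 to 8 for the strain difference after bleomycin. Over all probe sets the called number at 14 d ran from 85 to 1246 in C57BL/6J (647 as reported) and from 198 to 1446 in BALB/c (1158). A left-out array leaves a group with 1, which is assumed to vary like the others. With the array letter as a replicate block, 3 members were called at 14 d in BALB/c and 4 over both strains and all times, and the other counts were the same. Deviations of the a arrays from their group means correlated between groups at -0.285 to 0.309, with a median of 0.006. A pairing shared by all groups was not seen, and one shared by some of them cannot be told from these values. The cause of the changes in these counts was not tested. With 2 arrays a group, differences near a log2 value of 0.5 are mostly below what these arrays can show.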
